A study of Homo sapiens with 2 samples.

Results

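Genes of the unfolded protein response and of the amino acid stress response were examined in the RNA-seq of Ramos and Ramos640 cells. The 40 genes, of 37122 in the count table, were listed by name for what they are known to do, as stress sensors, as folding and degradation genes of the endoplasmic reticulum (ER), and as ATF4 and its targets. The rule used no measured value, but the list was chosen with earlier results of these data known. All 40 had a row, and all 40 passed the minimum of 10 reads in the 2 libraries together, with 533 to 115111 reads each. Ramos is a human Burkitt's lymphoma line of B cell origin. Ramos640 was derived from it by repeated exposure to rising amounts of rituximab, an antibody to CD20, with normal human serum as the source of complement, and it resists the complement-dependent killing that rituximab directs. It was kept under selection by treatment every 21 days with rituximab (640 mg/mL as labelled, whereas the study's methods give the same figure in μg/mL) and 20% normal human serum. Both lines were grown in RPMI 1640 with fetal bovine serum and penicillin and streptomycin. RNA of 3 passages was pooled for each line, so that there is 1 library per line and no replicate check. How long after a treatment the Ramos640 cells were collected is not given in the sources used here, and the parental line is not labelled as having received serum or antibody. Selection and recent treatment cannot be told apart in this design.

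Secreted and membrane proteins fold in the ER with the help of chaperones and disulfide isomerases, and proteins that fail to fold are sent back to the cytosol for degradation. Unfolded protein in the ER is sensed by IRE1α, PERK and ATF6, which raise chaperone and degradation genes through the transcription factors XBP1 and ATF6 and slow protein synthesis through phosphorylation of the initiation factor eIF2α. A shortage of amino acids reaches the same factor through GCN2, and translation of ATF4 then raises genes for amino acid synthesis and uptake. Of these routes, the one through IRE1α and XBP1 is needed when B cells mature into antibody-secreting cells.

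The B cell label was checked against markers. All 6 B cell markers had between 1904 and 82890 reads in each library, although they differed between the lines, from -1.96 for MS4A1 (the gene of CD20) and -0.80 for PAX5 to 0.57 for CD79A and 0.64 for CD79B in log2 fold change, Ramos640 over Ramos. The part of these shifts in the results that follow was not tested. All 4 germinal centre markers were detected and were lower in Ramos640 (from -0.92 for MME to -0.36 for BCL6), with summed levels of 1084 CPM (counts scaled to the size of the library) in Ramos and 714 CPM in Ramos640. Of the 6 plasma cell markers, the defining PRDM1 and SDC1 had 16 and 1 reads in Ramos and 31 and 3 in Ramos640, and the list summed to 2096 and 2452 CPM, most of it from IGJ and MZB1. IGJ (0.32) and MZB1 (0.48) were higher in Ramos640, whereas TNFRSF17 (-0.73) and IRF4 (-0.05) were lower. T cell markers summed to 0.447 and 1.65 CPM with 3 of 6 at 0 in both libraries (CD3D, CD2 and CD8A), and monocyte markers to 0.131 and 0.486 CPM with 2 of 4 at 0 in Ramos (LYZ and FCN1). The libraries held 38030090 reads for Ramos and 30871826 for Ramos640.

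Short regulatory sequences set some of these genes apart before any value is considered, and they are shown for the genes on which the results turn. The ER stress element (ERSE), bound by ATF6 with NF-Y, was searched as CCAAT, 9 bases of any kind and CCACG. ERSE-II was searched as ATTGG, 1 base of any kind and CCACG, the C/EBP-ATF response element (CARE) of ATF4 targets as TGATGNAA, and the unfolded protein response element (UPRE) of XBP1 as TGACGTGG. Both strands of the RefSeq promoter windows (GRCh38.p14, 250 bases before to 50 after the transcription start) were read, and 35 of the 40 genes had such a window. The bases before the start are given for 4 genes, 5′ to 3′ on the gene's strand, with every match to any of the motifs in capitals: CALR (chr19:12938359-12938608, plus strand), with an ERSE on the opposite strand; HERPUD1 (chr16:56931892-56932141, plus), with a CARE on the opposite strand and then an ERSE-II; HYOU1 (chr11:119057206-119057455, minus), with a UPRE that overlaps an ERSE-II on the opposite strand and a further ERSE-II, also on the opposite strand, nearer to the start; and ASNS (chr7:97872409-97872658, minus), with a CARE.
CALR: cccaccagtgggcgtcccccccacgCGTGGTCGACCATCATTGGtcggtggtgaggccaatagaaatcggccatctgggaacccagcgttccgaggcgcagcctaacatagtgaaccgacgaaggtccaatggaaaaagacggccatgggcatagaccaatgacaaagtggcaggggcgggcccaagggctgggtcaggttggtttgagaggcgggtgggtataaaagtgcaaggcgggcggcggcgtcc
HERPUD1: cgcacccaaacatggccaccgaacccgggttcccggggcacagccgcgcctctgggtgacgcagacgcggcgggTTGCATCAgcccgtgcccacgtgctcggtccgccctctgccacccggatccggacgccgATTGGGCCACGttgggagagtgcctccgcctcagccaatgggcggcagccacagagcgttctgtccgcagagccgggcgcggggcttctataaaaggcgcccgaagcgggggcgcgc
HYOU1: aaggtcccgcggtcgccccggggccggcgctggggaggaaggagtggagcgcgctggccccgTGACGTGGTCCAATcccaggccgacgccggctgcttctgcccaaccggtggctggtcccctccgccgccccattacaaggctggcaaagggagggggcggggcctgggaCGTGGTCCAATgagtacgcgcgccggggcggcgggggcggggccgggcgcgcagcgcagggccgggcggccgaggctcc
ASNS: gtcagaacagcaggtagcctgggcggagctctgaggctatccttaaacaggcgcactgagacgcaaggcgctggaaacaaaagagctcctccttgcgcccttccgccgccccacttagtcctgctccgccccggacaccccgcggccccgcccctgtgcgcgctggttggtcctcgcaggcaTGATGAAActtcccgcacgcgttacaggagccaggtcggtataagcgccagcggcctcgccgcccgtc

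The other matches lay in CANX, CRELD2, SDF2L1, CHAC1, ATF3 and SLC3A2. Shorter stretches around 5 of these are shown in the same way, with the match in capitals and 20 bases on each side, so that the shared letters can be read across genes. They come from CANX (ERSE, chr5:179698758-179698816), CRELD2 (ERSE on the opposite strand, chr22:49918534-49918592), SDF2L1 (ERSE-II on the opposite strand, chr22:21642094-21642144), CHAC1 (CARE on the opposite strand, chr15:40953242-40953289) and ATF3 (CARE, chr1:212565196-212565243), all genes of the plus strand.
CANX: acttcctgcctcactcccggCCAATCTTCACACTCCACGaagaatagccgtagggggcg
CRELD2: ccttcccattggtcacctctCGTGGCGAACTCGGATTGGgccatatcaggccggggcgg
SDF2L1: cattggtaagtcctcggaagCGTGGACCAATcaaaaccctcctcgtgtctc
CHAC1: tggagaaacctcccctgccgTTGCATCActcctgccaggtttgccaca
ATF3: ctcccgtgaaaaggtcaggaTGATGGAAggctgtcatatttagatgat

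ERSE was found in 3 of the 35 windows (8.57%) and in 22 of all 27305 promoters in the table (0.0806%). ERSE-II was likewise found in 3 of the 35 (8.57%) and in 15 of all promoters (0.0549%). All 6 of these genes belong to ER folding or degradation, of which 14 had a window. CARE was found in 5 of the 35 windows (14.3%) and in 1003 of all promoters (3.67%), and 4 of its 5 genes belong to the 17 transcription factor, feedback, enzyme and transporter genes with a window. UPRE was found in 1 window, that of HYOU1, and in 217 of all promoters (0.795%). These genes are textbook targets of the factors, so the matches describe the list and not the samples, and a match is not a measured site.

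In the comparison of Ramos640 with Ramos, 9 of the 16 genes that fold, admit or clear ER proteins were past 1.5-fold higher in the resistant line and 1, EDEM1, past 1.5-fold lower. Of the 20 transcription factor, feedback, enzyme and transporter genes 3 were past 1.5-fold higher and 1 lower, and of the 4 sensors 1, EIF2AK4, was higher. Of the 40 genes, 13 (32.5%) were more than 1.5-fold higher in Ramos640 and 2 (5%) more than 1.5-fold lower, 1.5-fold being the fold criterion of the study. Among all 18778 genes with at least 10 reads, 14.6% were past 1.5-fold higher and 17.3% past 1.5-fold lower. Protein-coding genes with at least 100 reads gave 7.13% higher and 12.6% lower. Across the 40 genes, log2 fold changes had a median of 0.25 (quartiles -0.096 and 0.66), against -0.015 (quartiles -0.40 and 0.34) for all genes tested and -0.023 for the 8386 protein-coding genes within the same range of reads. In bulk RNA, fewer cells that express a gene and less RNA per cell cannot be told apart.

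Counting error was small beside many of these differences. For each gene the reads of both libraries gave a 95% Clopper-Pearson interval of the log2 fold change, which covers counting error only and not the spread between cultures. It lay above 0 for 25 of the 40 genes (62.5%, against 29.6% of all genes tested) and below 0 for 11 (27.5%, against 31.6%), and it included 0 for ERN1, ATF6, TRIB3 and SESN2. For 11 of the 13 higher genes the whole interval lay past 1.5-fold, and for neither of the 2 lower genes. Among all genes tested the whole interval lay past 1.5-fold for 5.79% on the higher side and 7.35% on the lower. Together, the 40 genes took up 0.954% of all reads in Ramos and 1.13% in Ramos640, a difference of 1810 CPM, of which the 10 ER folding and entry genes gave 1507 CPM. Without CALR the difference over the remaining 39 genes was 915 CPM.

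**Figure D1:**
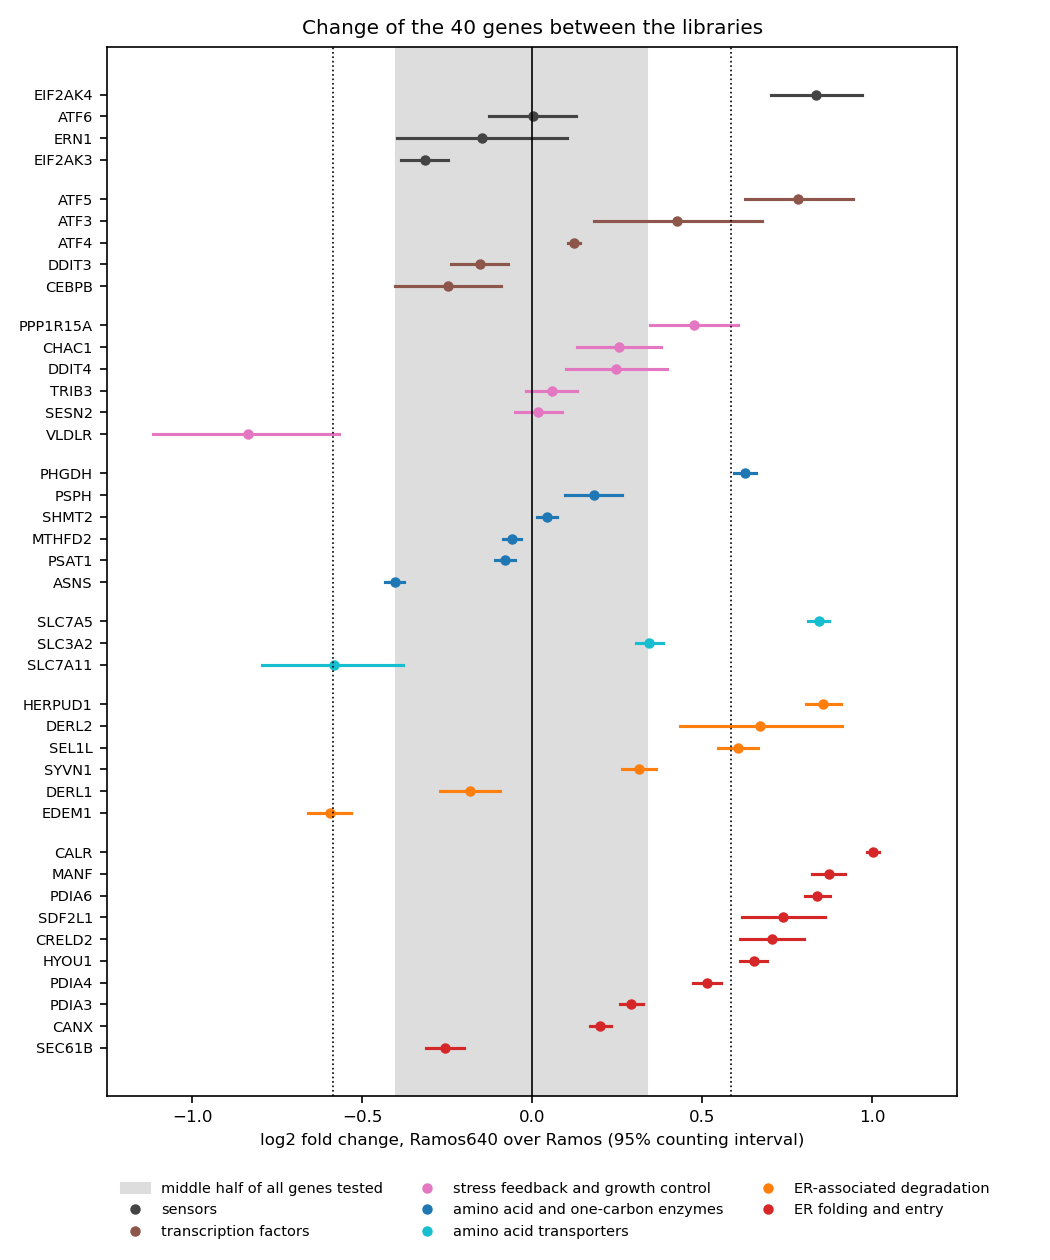
Log2 fold change of each of the 40 genes, Ramos640 over Ramos, grouped and coloured by role, with bars for the 95% counting interval, dotted lines at 1.5-fold and grey shading between the quartiles of all genes tested. Most points of ER folding and entry lie to the right, up to 1.00 for CALR, while the enzymes and feedback genes scatter around 0.

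The largest fold change of the 40 genes was that of calreticulin. CALR (19:13049392-13055303 on GRCh37, plus strand) encodes a calcium-binding chaperone that holds new glycoproteins in the ER. CALR reads numbered 38066 in Ramos and 58543 in Ramos640, or 357 and 677 RPKM (reads scaled to exon length and library size), which is a log2 fold change of 1.00 (interval 0.98 to 1.02). That placed it at percentile 96.8 of the genes with at least 100 reads. CANX, its membrane-bound partner in the same cycle, had 17152 and 15128 reads and a log2 fold change of 0.20 (0.17 to 0.23). The ratio of CALR to CANX reads went from 2.22 in Ramos to 3.87 in Ramos640, a log2 difference of 0.80 (0.77 to 0.84). Such a difference does not depend on how the libraries are scaled, but it does depend on base composition, and with the trend over GC content described further on removed it was 0.45, with CANX at 0.42. Pairs such as this were chosen after their values were seen.

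MANF (3:51422722-51426828, plus strand), a small secreted protein of the ER stress response, had 5780 reads in Ramos and 8121 in Ramos640 and was 1.83-fold higher (log2 fold change 0.87, interval 0.82 to 0.92). SDF2L1, a component of ER chaperone complexes, had 956 and 1225 reads (0.74, 0.62 to 0.86), and CRELD2, another secreted ER stress protein, 1663 and 2083 (0.71, 0.61 to 0.80). HYOU1, a large chaperone that exchanges nucleotide on BiP, had 9650 and 11634 reads and was 1.57-fold higher (0.65, 0.61 to 0.69). All 4 were past 1.5-fold with their whole interval. With the GC trend removed MANF stood at 0.76, while HYOU1 (0.51), SDF2L1 (0.56) and CRELD2 (0.57) came inside 1.5-fold. HYOU1, SDF2L1 and CRELD2 are among the genes with an ERSE or ERSE-II shown above, whereas CANX, which has an ERSE, stood at 0.20. MANF, the highest of the 4, had a promoter window but no match to any of the motifs. The relation of matches to fold changes was not tested.

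Among the protein disulfide isomerases, which form and rearrange disulfide bonds, PDIA6 had 10605 reads in Ramos and 14558 in Ramos640 and was 1.79-fold higher (0.84, 0.80 to 0.87). PDIA4 had 9198 and 10085 reads and stood below 1.5-fold at 0.51 (0.47 to 0.55). PDIA3, the isomerase that works with CALR and CANX on glycoproteins, had 14440 and 13569 reads and a log2 fold change of 0.29 (0.26 to 0.33). The 3 isomerases were thus unequal, and PDIA6 over PDIA3 differed by 0.55 between the libraries. SEC61B, a subunit of the channel through which new proteins enter the ER, was the only gene of its group that was lower in Ramos640, with 6778 and 4355 reads (-0.26, -0.31 to -0.20). PDIA3 shares 622 exon bases with ELL3 on the opposite strand, which had 15860 and 7440 reads, and has a processed copy, PDIA3P1, with 6082 and 5957 reads. The counting program and its use of strand are not given in the sources used here, so the PDIA3 value is uncertain.

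Over the 10 folding and entry genes the median log2 fold change was 0.68, with 6 past 1.5-fold higher and 0 lower. Their summed level was 3005 CPM in Ramos and 4512 CPM in Ramos640. Without CALR it was 2004 and 2616 CPM, so that CALR alone gave more than the other 9 genes together of the difference in reads.

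**Figure D2:**
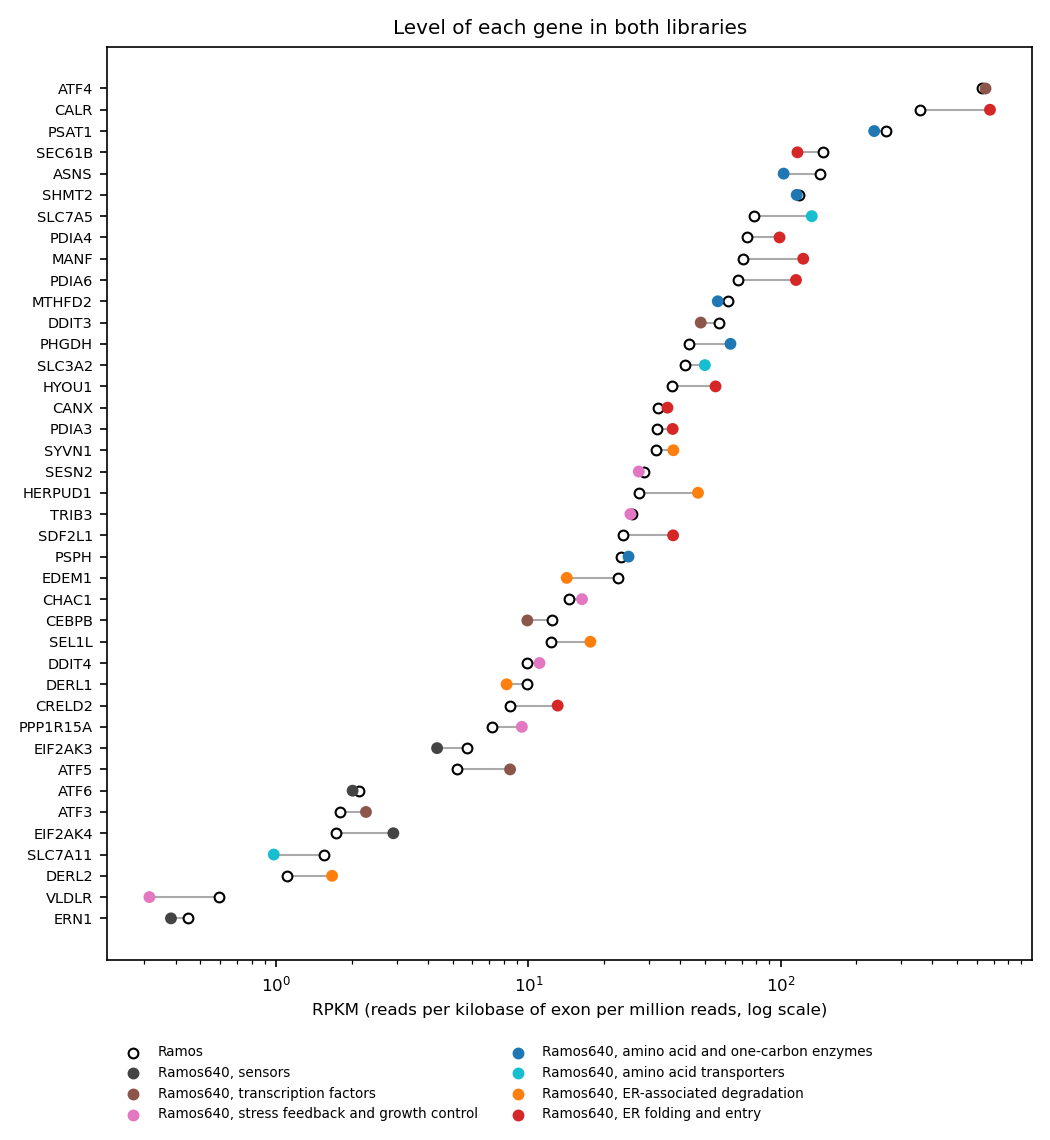
Level of each of the 40 genes in RPKM on a log axis, with an open circle for Ramos and a filled circle, coloured by role, for Ramos640, sorted by the Ramos level. ATF4 and CALR are at the top, with CALR moving from 357 to 677 RPKM, and VLDLR and ERN1 are at the bottom, below 1 RPKM.

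Genes of ER-associated degradation went both ways. HERPUD1 (16:56966054-56978776, plus strand), a membrane protein that gathers the degradation machinery, had 5292 reads in Ramos and 7352 in Ramos640 and was 1.81-fold higher (log2 fold change 0.86, interval 0.80 to 0.91). EDEM1 (3:5229331-5261643, plus strand), which marks misfolded glycoproteins for disposal by trimming their mannose, had 5809 and 2950 reads and was 1.51-fold lower (-0.60, -0.66 to -0.53). HERPUD1 and EDEM1 had similar read counts in Ramos, at a ratio of 0.911, and differed in Ramos640 at a ratio of 2.49. The log2 difference was 1.45 (1.37 to 1.53).

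SEL1L and SYVN1 encode the adaptor and the ubiquitin ligase of the main degradation complex. SEL1L had 4449 and 5194 reads (0.60, 0.55 to 0.66) and SYVN1 6676 and 6372 (0.31, 0.26 to 0.36). Both were higher in Ramos640, SEL1L more so by 0.29 (0.21 to 0.37; 0.72 with the GC trend removed), and SEL1L was just past 1.5-fold, at 1.52-fold. SYVN1 shares 356 exon bases with MRPL49 on the opposite strand, which had 3557 and 2852 reads. It also shares 130 with FAU on the same strand, which had 14604 and 9324 reads. How reads in shared bases were counted is not given, so the SYVN1 value and its difference from SEL1L are uncertain. Of the derlins, membrane proteins of the same route, DERL2 had 268 and 328 reads (0.67, 0.44 to 0.91) and DERL1 had 2602 and 1759 (-0.18, -0.27 to -0.10). Per length DERL1 remained the more abundant, at 9.84 and 8.19 RPKM against 1.10 and 1.66 RPKM for DERL2. DERL2 overlaps MIS12 on the opposite strand by 301 exon bases, and MIS12 had 604 and 361 reads. Over the 6 degradation genes the median was 0.46, with 3 past 1.5-fold higher and 1 lower.

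Of the 4 sensors, 1 was past 1.5-fold. ERN1, which encodes IRE1α, had 326 reads in Ramos and 226 in Ramos640, at 0.45 RPKM the lowest level per length of the 40 genes in Ramos, and its log2 fold change of -0.15 had an interval of -0.40 to 0.10. ATF6 had 1150 and 884 reads and stood at 0.00 (-0.13 to 0.13). EIF2AK3 (2:88856259-88991036, minus strand), which encodes PERK, had 4498 and 2774 reads and was lower in Ramos640 (-0.32, -0.39 to -0.25). None of these 3 ER sensors was past 1.5-fold. EIF2AK4 (15:40226316-40327792, plus strand), which encodes the amino acid sensor GCN2, had 787 and 1078 reads and was 1.78-fold higher (0.83, 0.70 to 0.97). The ratio of EIF2AK4 to EIF2AK3 reads was 0.175 in Ramos and 0.389 in Ramos640, a log2 difference of 1.15 (1.00 to 1.30), so these 2 kinases of eIF2α differed in direction. With the GC trend removed EIF2AK3 stood nearer to equal, at -0.13, and the difference was 0.98.

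ATF4 (22:39915700-39918688, plus strand), the transcription factor on which both kinases converge, had the highest level per length of the 40 genes in Ramos, 631 RPKM, and stood at 650 RPKM in Ramos640. Its 62696 and 52415 reads gave a log2 fold change of 0.12 (0.11 to 0.14), or -0.060 with the GC trend removed, and ATF4 is controlled largely at translation, which these libraries do not measure. The processed copies ATF4P3 and ATF4P4 held 4016 and 4197 reads in Ramos and 3339 and 2947 in Ramos640. ATF5, a related factor that is also translated under stress, had 571 and 755 reads and was 1.72-fold higher (0.78, 0.63 to 0.94). It overlaps NUP62 on the opposite strand by 565 exon bases, and NUP62 had 6400 and 5528 reads. ATF3, induced by many stresses, had 271 and 280 reads (0.43, 0.18 to 0.67).

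DDIT3, which encodes the pro-apoptotic factor CHOP, had 2820 reads in Ramos and 1946 in Ramos640 and was slightly lower (-0.15, -0.24 to -0.07). CEBPB, a partner of ATF4 and CHOP, had 869 and 562 reads (-0.25, -0.40 to -0.09). ATF5 was the only transcription factor of the 5 past 1.5-fold, and the group's median was 0.12, or -0.060 with the GC trend removed.

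Of the 6 genes that act as feedback on the stress response or restrain growth, 5 lay within 1.5-fold. PPP1R15A, which encodes the GADD34 subunit that returns eIF2α to its unphosphorylated form, had 935 reads in Ramos and 998 in Ramos640 (0.47, 0.35 to 0.61). CHAC1, which degrades glutathione, had 1128 and 1033 (0.25, 0.13 to 0.38), and DDIT4, an inhibitor of mTORC1, 771 and 703 (0.25, 0.10 to 0.40). These 3 were higher in Ramos640 by less than 1.5-fold. With the GC trend removed PPP1R15A stood at 0.29, CHAC1 at 0.068 and DDIT4 at 0.069. TRIB3, a pseudokinase that restrains ATF4 and CHOP, had 3226 and 2578 reads (0.06, -0.02 to 0.13), and SESN2, a leucine sensor upstream of mTORC1, 3766 and 2928 (0.02, -0.05 to 0.09). VLDLR (9:2621182-2660056, plus strand), a lipoprotein receptor and ATF4 target, had 373 and 160 reads and was 1.79-fold lower (-0.84, -1.12 to -0.57). It was the lowest fold change of the 40, at percentile 6.76 of the genes with at least 100 reads, and its level was 0.59 RPKM in Ramos and 0.31 in Ramos640.

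The enzymes of amino acid and folate metabolism were abundant and, apart from PHGDH and ASNS, close to equal in the 2 libraries. PHGDH (1:120191034-120286841, plus strand), the entry enzyme of serine synthesis, had 15150 reads in Ramos and 17949 in Ramos640 and was 1.54-fold higher (0.63, 0.59 to 0.66). PSAT1 and PSPH, the next enzymes of that pathway, had 22031 and 16013 reads (-0.08, -0.11 to -0.05) and 2444 and 2127 reads (0.18, 0.10 to 0.27). The log2 difference between PHGDH and PSAT1 was 0.70 (0.66 to 0.75), and 0.39 with the GC trend removed, which also turned the sign of PSAT1, to 0.11. PSAT1 has a copy, PSAT1P3, with 889 and 447 reads.

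SHMT2 and MTHFD2, which pass carbon from serine to folate in the mitochondrion, had 20746 and 16427 reads (0.04, 0.01 to 0.07) and 27002 and 19909 reads (-0.06, -0.09 to -0.03). ASNS (7:97480989-97501854, minus strand), asparagine synthetase, fell by 0.40 on the log2 scale in Ramos640 (interval -0.43 to -0.38), with 26806 and 15546 reads. It is an ATF4 target with the CARE shown above, and ATF4 over ASNS differed by 0.53 (0.49 to 0.56) between the libraries. With the GC trend removed, ASNS stood at -0.23 and the difference from ATF4 was 0.17. Of the 6 enzymes 1 was past 1.5-fold higher and 0 lower, with a median of -0.0071.

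Of the 3 transporters that carry amino acids for the same response, 1 was past 1.5-fold higher. SLC7A5 (16:87863629-87903113, minus strand), the light chain of the LAT1 carrier of leucine and other large neutral amino acids, had 14199 reads in Ramos and 19551 in Ramos640, or 78.4 and 133 RPKM, and was 1.79-fold higher (0.84, 0.81 to 0.87). SLC3A2, the heavy chain that LAT1 shares with other carriers, had 10140 and 9885 reads (0.34, 0.30 to 0.38). SLC7A11, the light chain of the cystine-glutamate exchanger, which pairs with the same heavy chain, had 569 and 291 reads (-0.58, -0.80 to -0.38) and lay just inside the 1.5-fold limit on the lower side. With the GC trend removed SLC7A11 stood at -0.22. The light chains therefore differed in direction. SLC7A5 over SLC3A2 reads went from 1.40 to 1.98, and SLC7A5 over SLC7A11 differed by 1.43 (1.22 to 1.64) on the log2 scale, or by 0.88 with the GC trend removed. Together the 20 transcription factor, feedback, enzyme and transporter genes had a median of 0.090 with 3 past 1.5-fold higher and 1 lower, against 0.63 with 9 higher and 1 lower for the 16 ER folding and degradation genes. This split by role was not tested.

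**Figure D3:**
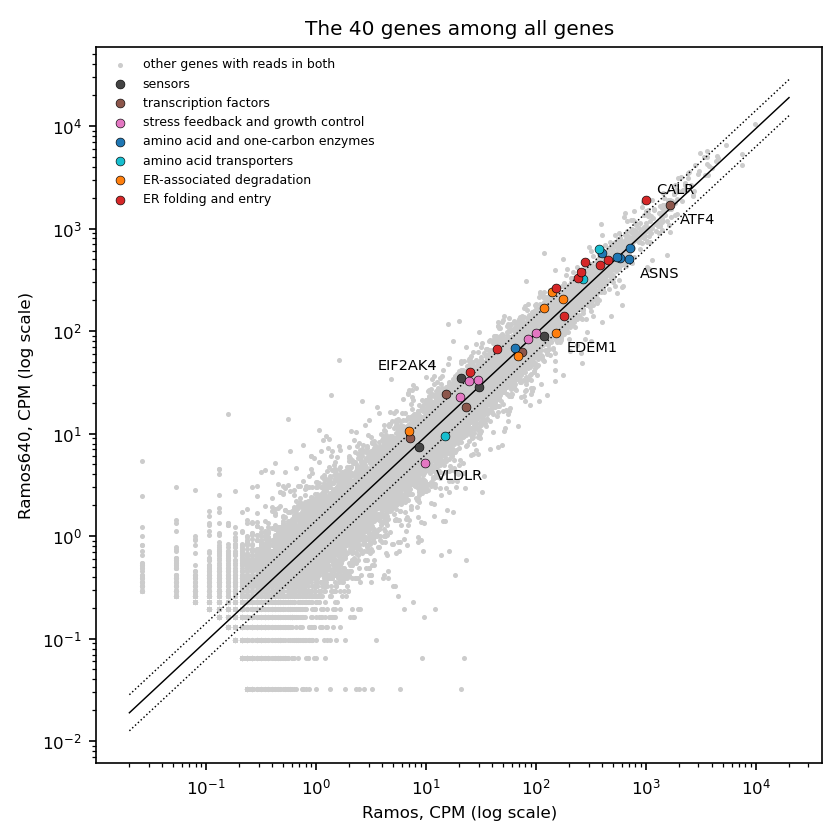
CPM in Ramos640 against CPM in Ramos, both on log axes, for genes with reads in both libraries (grey) and the 40 genes (coloured by role), with a solid line for equal size-factor-scaled levels and dotted lines at 1.5-fold. CALR lies above the upper dotted line and VLDLR below the lower, while ATF4 and ASNS fall between them.

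The libraries differed along base composition, and values with the trend over GC content removed are given beside some of the genes and groups, not all. Transcripts rich in G and C tended to be higher in Ramos640: the Spearman correlation of GC content with the log2 fold change was 0.419 over the 10245 protein-coding genes of adequate depth (100 reads or more; a description across genes of 1 pair of libraries), and medians ran from -0.34 in the lowest decile of GC content to 0.19 in the highest. The 40 genes had a median GC content of 50.3%, against 47.5% for these genes. With the running median over GC content subtracted, the median of the 40 genes was 0.19 in place of 0.25, that of ER folding and entry 0.54 in place of 0.68 and that of degradation 0.52 in place of 0.46. CALR stood at 0.88, PDIA6 at 0.86 and HERPUD1 at 0.87 after this step, and PHGDH, HYOU1, CRELD2, SDF2L1 and EDEM1 came inside 1.5-fold. That left 9 of the 40 genes past 1.5-fold higher and 1 lower, beside 10.6% and 12.5% of all genes tested. The part of base composition in the results was not tested further.

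**Figure D4:**
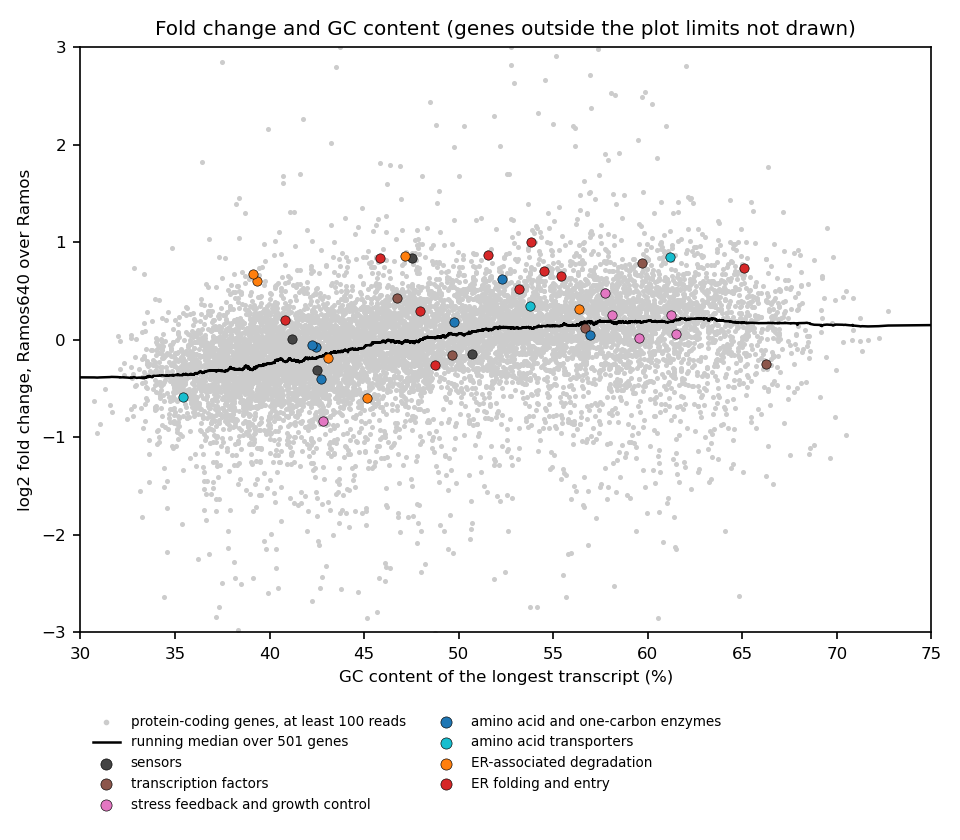
Log2 fold change, Ramos640 over Ramos, against GC content of the longest transcript for protein-coding genes with at least 100 reads (grey), their running median (line) and the 40 genes (coloured by role). The line rises with GC content, and most ER folding genes lie above it.

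Lists of further genes of the same pathways were drawn from textbook knowledge and not by their values, but with earlier results of these data known. These 147 genes in 9 lists show how far the pattern reached. Of these, 144 had at least 10 reads, 24 of which (16.7%) were past 1.5-fold higher and 9 (6.25%) lower, with a median of 0.079, beside 14.6% and 17.3% of all genes tested. Among those with at least 100 reads, 22 of 141 (15.6%) were higher and 8 (5.67%) lower, beside 7.13% and 12.6% of protein-coding genes of that depth. HSPA5, which encodes BiP, the main ER chaperone, had 21686 reads in Ramos and 28147 in Ramos640 (0.76, 0.73 to 0.78). HSP90B1, which encodes its companion GRP94, had 7195 and 10902 (0.98, 0.94 to 1.02), and XBP1, the factor that IRE1α activates by splicing, 18028 and 22624 (0.71, 0.68 to 0.74). These 3 were all past 1.5-fold higher, as CALR, PDIA6 and HYOU1 were, and with the GC trend removed HSPA5 stood at 0.88, HSP90B1 at 1.23 and XBP1 at 0.93. CALR exceeded HSPA5 by 0.24 before that step and by 0.0011 after it. The total reads of XBP1 do not show its splicing.

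The further chaperones ranged widely. DNAJB9, a co-chaperone of BiP raised by XBP1, had 413 and 312 reads (-0.02, -0.24 to 0.19). DNAJC3, which encodes the co-chaperone p58IPK, had 2130 and 1765 (0.11, 0.02 to 0.20), and HSPA13, an ER ATPase, 1014 and 641 (-0.28, -0.43 to -0.14). With the GC trend removed these 3 stood at 0.29, 0.36 and 0.091, so the sign of DNAJB9 and HSPA13 turned. SIL1, which exchanges nucleotide on BiP as HYOU1 does, had 456 and 730 reads and a log2 fold change of 1.06. The 23 further chaperones and oxidoreductases had a median of 0.21 with 7 past 1.5-fold higher and 2 lower, and the 12 further regulators 0.34 with 3 higher and 0 lower, among them WFS1, an ER membrane protein, with 83 and 158 reads (1.30). The 22 further degradation genes had a median of 0.060 with 3 higher and 0 lower.

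Entry into the ER was mixed. SEC62, a translocon component, had 6393 reads in Ramos and 2518 in Ramos640 (-0.96), and SEC11C, a catalytic subunit of signal peptidase, 1849 and 2871 (1.02). The median of the 16 translocon and signal peptide genes was -0.028, or 0.24 with the GC trend removed, with 3 past 1.5-fold higher and 1 lower. SEC61B among the 40 genes stood at -0.26.

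The lists of the amino acid response had these values. The 12 tested genes of eIF2, its kinases and its phosphatase had a median of 0.17 with 2 past 1.5-fold higher and 1 lower, the lower gene being EIF2AK2, which encodes the RNA-sensing kinase PKR (201 and 79 reads, -0.96). The 13 tested further ATF4 pathway genes had a median of -0.18, or 0.0063 with the GC trend removed, with 1 higher and 1 lower, KLHL24, a ubiquitin ligase adaptor, being the lower (488 and 137 reads, -1.45). The higher gene of that list, GDF15, had 1 read in Ramos and 10 in Ramos640 (2.73, interval 0.89 to 9.14). The 16 further enzymes stood at 0.053, or -0.039 with the GC trend removed, with 1 higher and 2 lower.

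Of the 10 further transporters, with a median of 0.16 and 2 higher and 1 lower, the neutral amino acid carriers SLC38A5 and SLC38A2 parted. SLC38A5 had 1652 and 2736 reads (1.11) and SLC38A2 had 799 and 287 (-1.09). The 20 cytosolic aminoacyl-tRNA synthetases, which load amino acids onto tRNA and include many ATF4 targets, had a median of 0.034 with 2 higher and 1 lower. NARS (18:55267888-55289445), which loads asparagine, was the lower, at 18188 Ramos reads against 4362 in Ramos640 (-1.68).

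**Figure D5:**
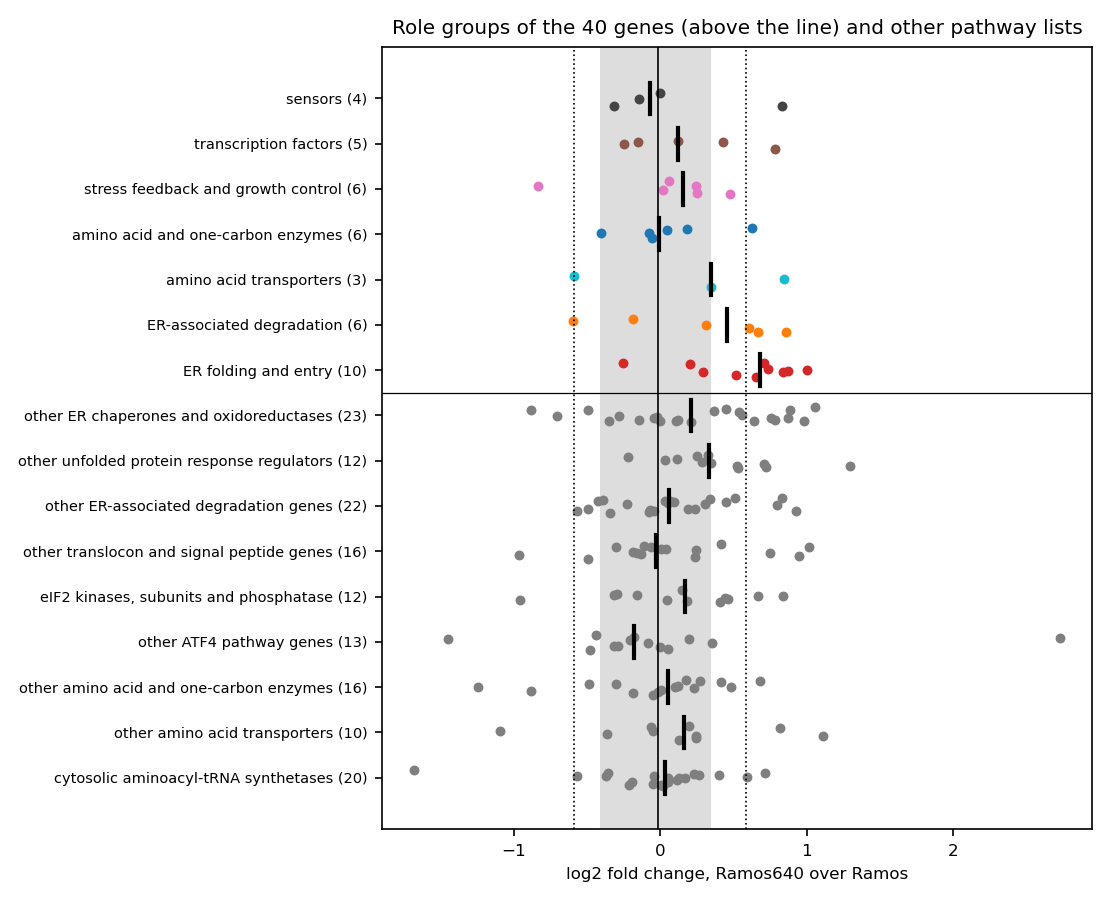
Log2 fold change, Ramos640 over Ramos, of each gene in the role groups of the 40 genes and in the lists of further pathway genes, with a short bar at each list's median, a solid line at the median of all genes tested, grey shading between their quartiles and dotted lines at 1.5-fold. ER folding and entry has the highest median of the groups, 0.68, and the ATF4 pathway list stands at -0.18 (0.0063 with the GC trend removed), where the single high point is GDF15.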

How the data were processed

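RNA-seq on an Ion Proton instrument measured 1 library of pooled RNA per cell line, which the labels place in the groups Ramos and Ramos640. The authors trimmed adaptors, aligned the reads to GRCh37 with MapSplice and deposited raw read counts per gene, without normalization. The counting program, annotation, strand and treatment of multi-mapped reads are not given in the sources used here. Of the 37122 rows, 28 carry a spreadsheet date in place of a gene name (0.205% and 0.176% of the reads) and were kept untraced.

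Counts were scaled by median-of-ratios size factors (1.14 and 0.876), and log2 fold changes used a pseudocount of 1. A gene was tested with at least 10 reads in both libraries together and called past 1.5-fold. With 1 library per line no dispersion can be estimated, so no p-value is given. Intervals at 95% cover counting error only, and 3 reads correspond to 0.0789 CPM in Ramos and 0.0972 CPM in Ramos640. Exon lengths for RPKM, transcript GC content and gene positions were taken from GENCODE v44lift37, to which all 40 genes and 84.2% of the genes tested were matched. Alternatives were edgeR's TMM factors (edgeR 4.0.16, R 4.3.3), total counts, other pseudocounts and read minimums, removal of the GC trend and stricter calls. Python 3.11.15, pandas 2.3.3 and scipy 1.17.1 were used, and the steps were tested on simulated data.

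The 40 genes and the lists were chosen with earlier results of these data known. Named genes are the 40, the 10 further pathway genes with the largest size of log2 fold change among those with at least 100 reads, and HSPA5, HSP90B1, XBP1, DNAJB9, DNAJC3 and HSPA13. The pairs and GDF15 were chosen after their values were seen.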

Additional observations from a re-analysis of the deposited data

How the results depend on the processing

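The alternatives were TMM factors, total counts, pseudocounts of 0.1 and 10, minimums of 1 and 100 reads and removal of the GC trend. Under them 228 of 280 fold changes of the 40 genes stayed within their counting interval, 52 moved and 0 of the called genes changed sign. The read minimums cannot alter a fold change, so those values were fixed in advance. All 52 moves came under total counts or removal of the GC trend. EIF2AK4, ATF5, SLC7A5, VLDLR, HERPUD1, DERL2, CALR, PDIA6 and MANF stayed past 1.5-fold in each of these settings. Total counts, which shift the median of all genes by -0.080, gave medians of 0.042 for transcription factors, -0.087 for enzymes, 0.26 for transporters and 0.60 for ER folding and entry, and moved PHGDH, SEL1L and HYOU1 inside 1.5-fold. They left 10 of the 40 genes past 1.5-fold higher and 3 lower, beside 12.5% and 20.4% of all genes tested. SLC7A11 went outside 1.5-fold under total counts, TMM factors and a pseudocount of 0.1. With the GC trend removed the medians were -0.060 for transcription factors, -0.037 for stress feedback, 0.12 for enzymes, 0.22 for transporters, 0.52 for degradation and 0.54 for ER folding and entry. It left 9 of the 40 genes past 1.5-fold higher in place of 13 and 1 lower in place of 2. Among all genes tested 10.6% were then higher and 12.5% lower. The signs of TRIB3, SESN2 and SHMT2 turned under both, that of ATF6 under TMM factors and total counts, and those of ATF4, PSAT1 and MTHFD2 with the GC trend removed. With the whole interval required past 1.5-fold, 11 of the 40 genes were higher and 0 lower, beside 5.79% and 7.35% of all genes tested. Removal of the GC trend from the pairs and the further lists was added after the data were seen, and its values stand beside some of them. Of values not shown above, it changed the log2 difference of SLC7A5 over SLC3A2 from 0.50 to 0.44. It took the median of the further chaperones and oxidoreductases from 0.21 to 0.33. The median of the eIF2 list went from 0.17 to 0.25 and that of the further transporters from 0.16 to 0.094. Past 2-fold, 1 of the 40 genes was higher and 0 lower, and 5 of the further pathway genes were higher and 4 lower. Among all genes tested 6.6% were past 2-fold higher and 8.8% lower, and neither set exceeded either share. No paired analysis was possible because each line has 1 library. Depth does not limit the abundant genes, while ERN1, ATF3, DERL2, VLDLR and SLC7A11, each with few reads, have wide intervals, and the spread between cultures is unknown.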
